A study of Mus musculus with 16 samples.

Results

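Tissue macrophages were followed through 6 of the 9026 genes that had a named probe: C1qa, Itgam, Lyz2, Laptm5, Cd5l and Ccl6. They were chosen by name, as genes of microglia, of Kupffer cells and of macrophages in general, and they account for 7 of 12760 named probes, since Lyz2 had a pair of probes and each other gene had 1. The RNA came from liver and brain of 4 male mice heterozygous for HdhQ111 (HdhQ111/+ on C57BL/6J), aged 18 weeks, each hybridised on 2-colour cDNA arrays. In HdhQ111 the huntingtin gene of the mouse carries a knocked-in, lengthened CAG repeat, a model of the Huntington's disease mutation. Each mutant RNA was set against a pool from the same tissue of 4 wildtype C57BL/6J males, also aged 18 weeks. Every tissue sample went on 2 arrays with opposite dyes, which makes 16 arrays in all. The study asked how the transcriptomes of these tissues differ between the mutant and the wildtype animals.

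Microglia are the resident macrophages of the brain, and Kupffer cells are those of the liver sinusoids. Both take up debris and pathogens, carry complement receptors, hold lysozyme and lysosomal proteins, and make the C1q molecule that starts the classical complement pathway. In brain, complement tagging of synapses and its removal by microglia has been studied in several neurodegenerative diseases, including Huntington's disease. In bulk tissue, a ratio away from 0 can come from more or fewer cells of a type or from more or less RNA per cell, and these cannot be told apart.

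Every value below is a log2 ratio, likely HdhQ111/+ over the wildtype pool, so that a positive value means more signal in the mutant mouse. The direction rests on the channel order in the labels and on the design text, and base 2 is assumed. A mouse's value is the mean of its 2 dye-swapped arrays, and the mice, numbered 1 to 4 in the order of the labels, are the replicates. The platform's gene symbols lie 11 rows away from the values, an inference from the data that no source states. As a check, probes of 1 gene at least 50 rows apart were correlated over mice. Their mean r was 0.094 at that offset (3059 pairs), 0.045 with the symbols as given, and at most 0.065 at the other 119 offsets tried. Ratios give no level of a gene in either tissue, so the tissues' identity and the order of the genes by abundance could not be examined. The arrays had 19530 to 20584 values each, and 1496 values over all arrays were at least 16.492 in size, with no other value over 8.297. These are called extreme ratios below. They were 769 values above 0 on arrays with HdhQ111/+ RNA in Cy5 and 727 below 0 on arrays with it in Cy3. The sign of every extreme ratio thus followed the dye orientation of its array. The liver arrays of mouse 1 had the widest spread of the livers, with interquartile ranges of 0.867 and 1.275, against 0.383 to 0.728. They lacked 1086 and 1108 values, against 210 to 499 in the other livers. No probe passed limma's test (adjusted p under 0.05) in liver or in brain.

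Complement and its receptor come first. C1qa, the A chain of C1q, had 0.075, 0.076, 0.17 and -0.13 in the 4 livers. It had 0.49, 0.32, 0.37 and 0.11 in the 4 brains. The livers lay around 0, while every brain was above 0. The mean was 0.0465 ± 0.13 in liver and 0.32 ± 0.16 in brain (SD, n = 4 mice each). In limma the brain mean had an unadjusted p of 0.042 and an adjusted p of 0.998 over all probes, with a 95% interval of 0.016 to 0.63. In liver the adjusted p was 0.856 and the interval ran from -0.19 to 0.29.

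Among the members, C1qa had the smallest mean difference between dye orientations in brain, at -0.010. With HdhQ111/+ RNA in Cy5 the brain arrays gave 0.615, 0.27, 0.49 and -0.105, and with it in Cy3 they gave 0.37, 0.37, 0.24 and 0.33. Of its 8 brain arrays, 7 were above 0, which held for 2.19% of the probes with a value on all 8 (this count was chosen after the values were seen). The means by orientation were 0.32 and 0.33. In liver, 5 of its 8 arrays were above 0.

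The other chains of the C1q molecule, named here after their values were seen, did not share one pattern with C1qa. C1qb, the B chain, averaged -0.12 ± 0.13 in liver and 0.15 ± 0.27 in brain. C1qc, the C chain, averaged 0.15 ± 0.41 in liver and -0.026 ± 0.12 in brain (SD, n = 4 mice each). C1qb was below 0 in 4 of 4 livers, and in brain each chain was above 0 in 2 of 4 mice. The adjusted p in limma was 0.642 for C1qb and 0.737 for C1qc in liver, and 0.999 for each in brain.

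Itgam is the alpha chain (CD11b) of complement receptor 3, which binds fragments of complement C3 on tagged material. Its livers were at -0.26, -0.37, -0.0735 and 0.055. Its brains were at 0.14, 0.39, 0.24 and 0.14. All 4 brains thus lay above every liver, which also held for the second Lyz2 probe (lowest brain 0.11, highest liver 0.0325). How many of all probes split this way was not counted, so nothing is concluded from the split. Each tissue was also set against its own pool, whose properties all 4 mice share. The mean was -0.16 ± 0.19 in liver and 0.23 ± 0.12 in brain (SD, n = 4 mice each), with adjusted p values of 0.643 and 0.998 in limma.

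The Itgam probe separated completely by dye. The liver arrays with HdhQ111/+ RNA in Cy5 were at 0.48, 0.21, 0.34 and 0.43, and those with it in Cy3 at -0.998, -0.94, -0.48 and -0.32. The brain arrays were at 0.725, 0.97, 0.53 and 0.685 in the first orientation and at -0.45, -0.19, -0.046 and -0.41 in the second. Every Cy5 array was above 0 and every Cy3 array below 0 in both tissues, as for 0.836% of the probes with a value on all 16 arrays. The Cy5-minus-Cy3 difference averaged 1.05 ± 0.34 in liver and 1.001 ± 0.29 in brain (SD, n = 4 mice), with adjusted p values of 0.135 and 0.136 in limma. This test of the dye passed 0.323% of probes in liver and 0.00517% in brain, and a difference above 0 in every mouse was found for 20.3% and 21.9%. Such a difference is larger than any of the mouse values of Itgam, whose sign thus rests on the averaging of the orientations. For the integrin's partner Itgb2, the common beta chain of the leukocyte integrins, too few mice had values for a test.

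**Figure D1:**
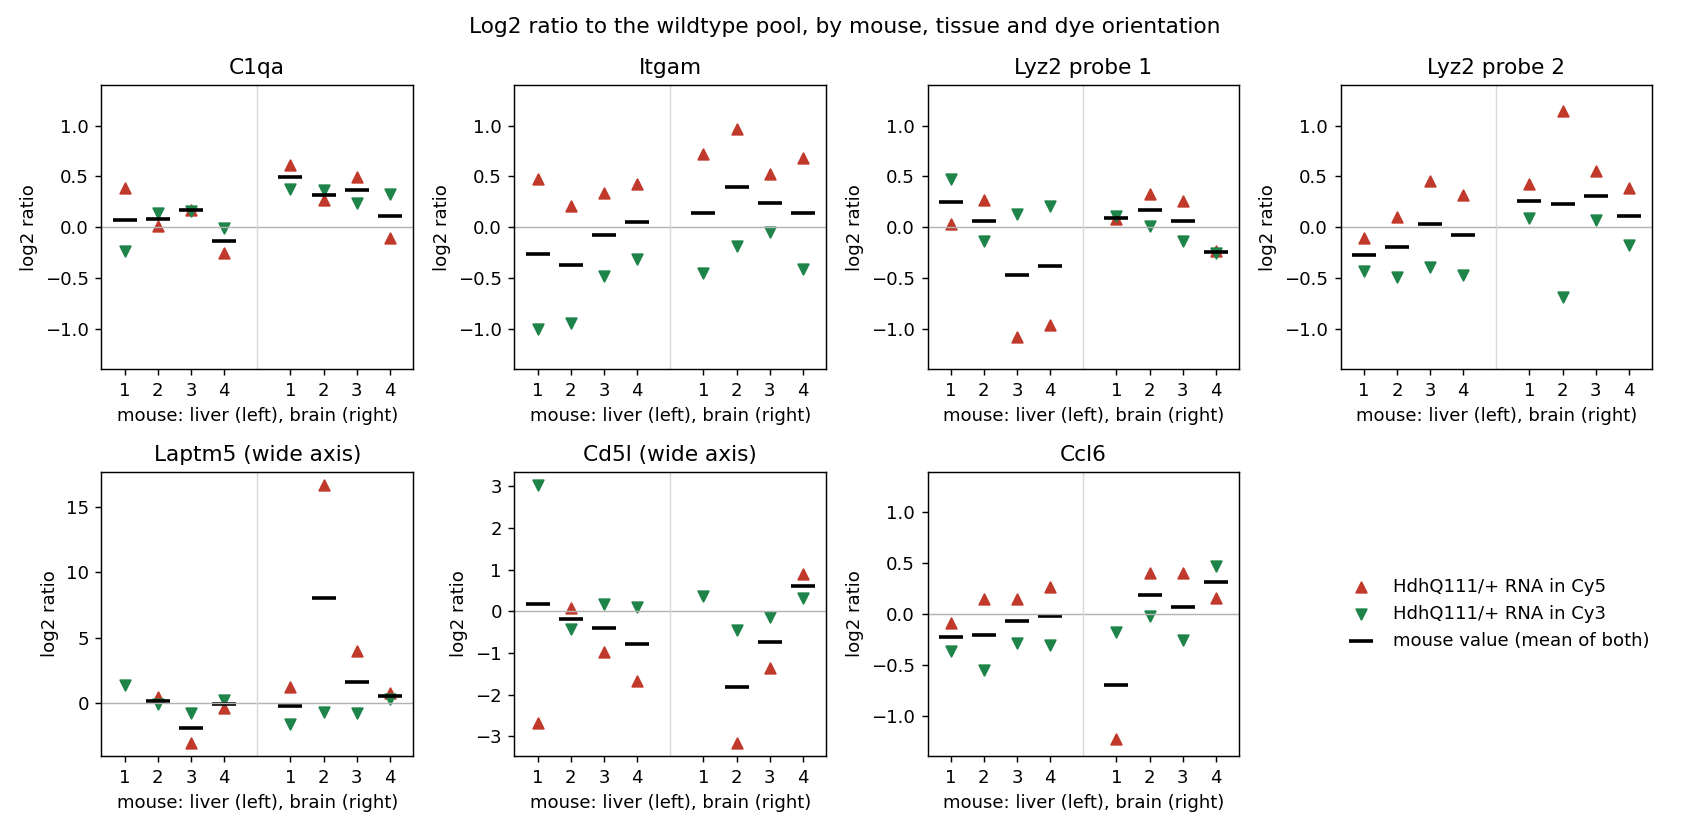
Log2 ratio to the wildtype pool (y axis) for each of the 7 probes, by mouse (x axis, livers left and brains right); red triangles are arrays with HdhQ111/+ RNA in Cy5, green triangles those with it in Cy3, and black bars the mouse values. The 4 brain bars of C1qa lie between 0.11 and 0.49, and for Itgam every Cy5 array lies above 0 and every Cy3 array below it; Laptm5 and Cd5l have wider axes of their own.

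Lyz2, lysozyme M of macrophages and granulocytes, was measured by a pair of probes that differed. The first probe had 0.25, 0.0655, -0.47 and -0.38 in liver and 0.0935, 0.17, 0.0615 and -0.24 in brain. The second had -0.27, -0.20, 0.0325 and -0.0735 in liver and 0.26, 0.23, 0.31 and 0.11 in brain. In the brains the second probe was above 0 in every mouse, and the first in 3 of 4. The mean of the first probe was -0.13 ± 0.35 in liver and 0.020 ± 0.18 in brain, and that of the second was -0.13 ± 0.13 in liver and 0.23 ± 0.087 in brain (SD, n = 4 mice each). In limma the adjusted p was 0.747 for the first and 0.664 for the second in liver, and 0.998 for each in brain.

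Over the 8 mouse values the pair of Lyz2 probes had a Pearson's r of 0.027, given as a description because liver and brain values come from the same 4 mice. The second probe also split by dye. Its Cy5 arrays averaged 0.19 in liver and 0.63 in brain, and its Cy3 arrays averaged -0.45 in liver and -0.18 in brain. The first probe had its widest split in liver, where the Cy5 arrays of mice 3 and 4 were at -1.08 and -0.97 and their Cy3 arrays at 0.13 and 0.21. Lyz1, the near-identical neighbour of Lyz2, had no named probe analysed here, and cDNA probes of either gene can bind both transcripts.

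The promoters of Itgam and Lyz2 are shown because both genes had a probe above 0 in every brain; C1qa, the other such gene, had no entry in the table of promoters. PU.1, the transcription factor that drives myeloid cells, is known to bind purine-rich boxes such as GAGGAA. Capitals mark this motif or its reverse complement TTCCTC, searched on both strands in 300 bases around the gene start (RefSeq, GRCm38.p6). The first lies at chr7:128062390-128062689 on the plus strand and the second at chr10:117282223-117282522 on the minus strand.
Itgam: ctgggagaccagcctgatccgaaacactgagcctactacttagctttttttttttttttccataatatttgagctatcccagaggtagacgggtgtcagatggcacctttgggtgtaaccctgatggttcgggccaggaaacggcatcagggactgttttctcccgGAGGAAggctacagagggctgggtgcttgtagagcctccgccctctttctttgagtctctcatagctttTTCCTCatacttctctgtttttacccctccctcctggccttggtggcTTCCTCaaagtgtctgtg
Lyz2: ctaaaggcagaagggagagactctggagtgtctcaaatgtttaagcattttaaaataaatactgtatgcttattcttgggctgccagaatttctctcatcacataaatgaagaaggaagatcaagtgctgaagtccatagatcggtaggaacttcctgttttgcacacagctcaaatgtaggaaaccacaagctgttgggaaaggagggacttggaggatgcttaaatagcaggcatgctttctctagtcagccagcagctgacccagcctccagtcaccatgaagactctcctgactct
The window of Itgam held 3 matches and that of Lyz2 none. Only this motif was searched, so a window without a match can still hold other purine-rich boxes. At least 1 match was found for 3 of the 5 members in the table (Itgam, Laptm5 and Cd5l), against 28.3% of all 32851 promoters. These matches describe letters in a window and say nothing of binding.

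Laptm5 encodes a lysosomal membrane protein of leukocytes that lowers antigen receptors on the cell surface. Its livers were at 0.16, -1.95 and -0.0685 for mice 2 to 4, and mouse 1 had no pair. Its brains were at -0.21, 8.01, 1.58 and 0.54. The brain of mouse 2 stood far above the others because its Cy5 array held 16.69, an extreme ratio, while its Cy3 array held -0.665. Every extreme ratio with HdhQ111/+ RNA in Cy5 was above 0, whatever the probe. With this ratio left out, the brain mean was 0.64 over 3 mice, against 2.48 ± 3.76 with it (SD, n = 4). In liver the mean was -0.62 ± 1.16 (SD, n = 3).

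The spread of Laptm5 was among the widest measured. Its SD over mice stood at the 97.6th percentile of all tested probes in liver and at the 98.0th in brain. All 4 Cy5 arrays in brain were above 0, at 1.23, 16.69, 3.94 and 0.76, and 3 of the 4 Cy3 arrays were below 0, at -1.65, -0.665 and -0.79, with mouse 4 at 0.32. The adjusted p in limma was 0.662 in liver and 0.998 in brain.

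Cd5l encodes a secreted scavenger protein, also called AIM, that Kupffer cells and other macrophages release into blood. Its livers were at 0.18, -0.18, -0.40 and -0.79. Its brains were at -1.81, -0.75 and 0.60 for mice 2 to 4, and mouse 1 had no pair. In liver 3 of 4 mice were below 0, and in brain 2 of 3. The mean was -0.30 ± 0.40 in liver (SD, n = 4) and -0.65 ± 1.21 in brain (SD, n = 3), with adjusted p values of 0.636 and 0.998 in limma. The brain mean was -0.0755 without mouse 2 and -1.28 without mouse 4, and the liver mean was -0.46 without mouse 1 and -0.14 without mouse 4.

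The arrays behind the Cd5l liver values disagreed in sign. The liver of mouse 1 had -2.685 with HdhQ111/+ RNA in Cy5 and 3.04 with it in Cy3. Over the 4 livers the Cy5 arrays averaged -1.32 and the Cy3 arrays 0.72. In brain the Cy5 arrays averaged -1.22 (n = 3) and the Cy3 arrays 0.023 (n = 4). The opposite order of the dyes was seen for Itgam and the second Lyz2 probe.

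Ccl6 is a chemokine of the CC family found in rodents and made by macrophages and other myeloid cells. Its livers were at -0.23, -0.20, -0.067 and -0.0185, all below 0. Its brains were at -0.70, 0.19, 0.072 and 0.32, with mouse 1 apart from the others. The mean was -0.13 ± 0.10 in liver and -0.031 ± 0.46 in brain (SD, n = 4 mice each), with adjusted p values of 0.651 and 0.998 in limma. Without mouse 1 the brain mean was 0.19.

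In liver the Cy5 arrays of Ccl6 were at -0.089, 0.15, 0.15 and 0.265, and its Cy3 arrays at -0.37, -0.56, -0.28 and -0.30. Each liver therefore had its higher value in Cy5, and the mean over Cy5 arrays alone was 0.12. Ccr1, a chemokine receptor that binds CCL6 in mouse, was named after its values were seen. It averaged -0.12 ± 0.19 in liver and 0.065 ± 0.20 in brain (SD, n = 4 mice each), with 2 of 4 mice above 0 in each tissue and adjusted p values of 0.67 and 0.999 in limma.

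Counted over the 7 probes, none passed limma's test in liver or in brain, where 0% of 20127 and 0% of 19325 probes passed. At an unadjusted p under 0.05 the count was 0 of 7 in liver, against 7% of all probes, and 1 of 7 in brain (C1qa), against 3.5%. A value above 0 in every mouse was found for 0 of 7 probes in liver, against 8.43% of all, and for 3 of 7 in brain (C1qa, Itgam and the second Lyz2 probe), against 6.78%. A value below 0 in every mouse was found for 1 of 7 in liver (Ccl6), against 12.7%, and for 0 of 7 in brain, against 5.72%. The genes were chosen with earlier results of these data known, so these shares are descriptions. The wildtype pool counts as 1 control sample, so the tests leave out the spread among wildtype mice, and any property of a pool is shared by all mice of that tissue.

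**Figure D2:**
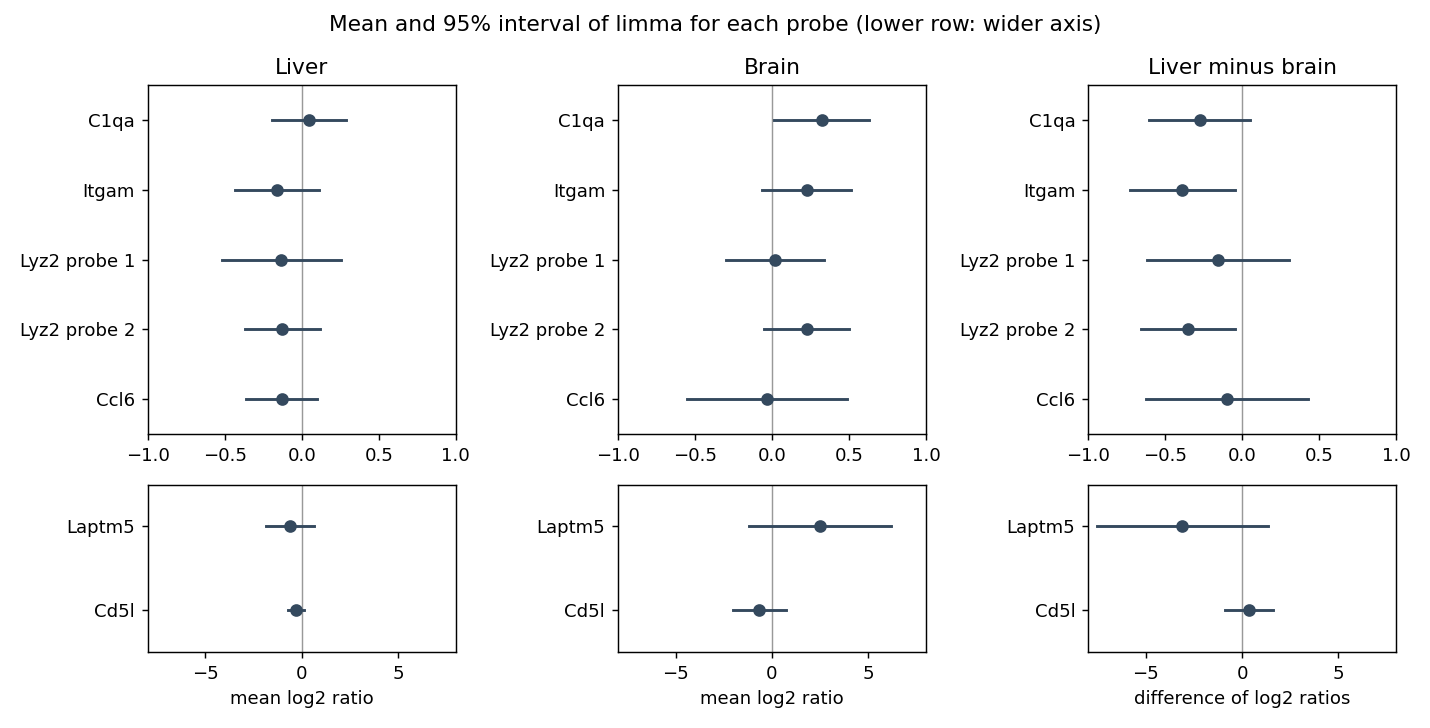
Mean log2 ratio in liver and in brain and the liver-minus-brain difference (x axes) for each probe, with limma's 95% intervals as bars and n = 3 or 4 mice; the lower row has a wider axis. The brain interval of C1qa and the difference intervals of Itgam and the second Lyz2 probe lie clear of 0 in these fits without pairing. None passed the test adjusted over all probes, and with the mouse as a block both difference intervals include 0 (-0.83 to 0.053 for Itgam and -0.73 to 0.029 for Lyz2).

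The tissues of the same 4 mice were then set against each other. Subtracted within mice 1 to 4, liver minus brain was -0.42, -0.24, -0.20 and -0.24 for C1qa, negative in every mouse. For Itgam it was -0.40, -0.76, -0.31 and -0.0815, and for the second Lyz2 probe -0.53, -0.42, -0.28 and -0.18. Laptm5 had -7.85, -3.52 and -0.61 in mice 2 to 4, the first of them from the extreme ratio. These 4 probes were thus negative in every mouse with both tissues, against 12.7% of all probes tested, and a positive difference in every mouse was found for 0 of 7, against 7.19%. The first Lyz2 probe and Ccl6 were negative in 3 of 4 mice, and Cd5l in 1 of 3.

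The test compared the mean of the livers with the mean of the brains, without pairing the mice. C1qa had -0.28 ± 0.14 (SE), Itgam -0.39 ± 0.15 and the second Lyz2 probe -0.35 ± 0.13, with unadjusted p values of 0.088, 0.030 and 0.028 in limma and an adjusted p of 0.739 for each. The first Lyz2 probe had -0.15 ± 0.20 and Ccl6 -0.099 ± 0.23. An unadjusted p under 0.05 was found for 2 of 7 probes, against 6.47% of all, while 1 of 19055 probes (0.00525%) passed the adjusted test. That probe was Prl, prolactin, which is no member of the set.

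With the mouse as a block, which pairs the tissues, the mean differences of C1qa, Itgam and Lyz2 were the same, but Itgam had an unadjusted p of 0.074 and the second Lyz2 probe one of 0.064. The only probe under 0.05 was then Laptm5, at 0.045, so the count was 1 of 7, against 5.58% of all probes. That fit includes the difference of -7.85 in mouse 2, made with the extreme ratio. Without it Laptm5 would have fewer than the 3 paired mice needed for a test. The adjusted p was 0.762 for Itgam, the second Lyz2 probe, Laptm5 and C1qa. Where a mouse lacked 1 tissue the estimates also differed. Laptm5 had -4.00 ± 1.44 (SE) over its 3 paired mice and -3.10 ± 1.89 between the group means. Without the extreme ratio, its group means differed by -1.25, but these were not over the same mice (livers of mice 2 to 4, brains of mice 1, 3 and 4). Cd5l had 0.20 ± 0.62 over its 3 paired mice and 0.35 ± 0.54 between the group means.

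Other genes of these cells were taken from lists, and a gene's probes were averaged before the test. Of 54 microglia and macrophage identity genes, 32 had a named probe. In liver 14 of 29 tested were above 0, with a median of -0.056, against 43.2% and -0.031 for all 8828 genes. In brain 19 of 28 were above 0, with a median of 0.087 (0.016 without mouse 3), against 56.9% and 0.024 for all 8621 genes. C1qa, Itgam, Laptm5 and Lyz2 belong to this list. No gene of it passed limma's test in either tissue, and an unadjusted p under 0.05 was reached by 3 in liver, against 7.6% of all genes, and by 1 in brain, against 3.12%. By rule, the 4 genes of each list with the smallest p in each tissue are named below, and none passed the adjusted test. A small p favours genes with the same sign in every mouse, so such counts below are descriptions. Of all probes, 8.43% in liver and 6.78% in brain were above 0 in every mouse. The shares below 0 in every mouse were 12.7% and 5.72%.

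In liver these were Irf8, a transcription factor of macrophages, at 0.29 ± 0.15, the microglial receptor Gpr34 at -0.26 ± 0.092, the phagocyte oxidase subunit Cybb at -0.26 ± 0.13 and the inhibitory Fc receptor Fcgr2b at -0.21 ± 0.16 (SD, n = 4 mice). Irf8 was above 0 in 4 of 4 mice, and Gpr34 and Cybb were below 0 in 4 of 4. In brain they were C1qa, Itgam and Laptm5, given above, and the high-affinity Fc receptor Fcgr1 at 0.18 ± 0.19. Fcgr1 was above 0 in 3 of 4 brains.

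The Kupffer cell list, which includes Cd5l, had 4 of 13 tested genes above 0 in liver, with a median of -0.16, and 5 of 14 in brain, with a median of -0.24. The shares above 0 over all genes were 43.2% in liver and 56.9% in brain. The brain median was 0.018 without mouse 2, and the liver median was -0.029 without mouse 1. The liver genes of smallest p were the scavenger receptor Msr1 at 0.32 ± 0.17, heme oxygenase Hmox1 at 0.27 ± 0.21, the oxysterol receptor Nr1h3 at -0.21 ± 0.21 and the ficolin Fcna at -0.43 ± 0.61 (SD, n = 4 mice). Msr1 was above 0 in 4 of 4 livers. In brain they were the platelet and Kupffer cell lectin Clec1b at -0.79 ± 0.088 (n = 3), Msr1 at -0.51 ± 0.57, the scavenger receptor Marco at 0.31 ± 0.28 and the folate receptor Folr2 at -0.34 ± 0.42. Clec1b was below 0 in 3 of 3 brains, and it had an unadjusted p of 0.0028 and an adjusted p of 0.999 in limma.

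Blood-borne myeloid cells carry some of the same transcripts. Of 15 tested monocyte and neutrophil genes, 13 were above 0 in liver, with a median of 0.10, and 9 in brain, with a median of 0.048. Of all genes, 43.2% were above 0 in liver and 56.9% in brain, the latter near the 60% of this list. In liver the calgranulin S100a8 was at 1.03 ± 0.98, the collagenase Mmp8 at -0.37 ± 0.30, neutrophil elastase Elane at 0.22 ± 0.19 and the granule protein Ngp at 0.26 ± 0.27 (SD, n = 4 mice). S100a8 was above 0 in 4 of 4 livers, with mouse 1 at 2.435, but its Cy5 arrays alone averaged -1.02. S100a9 of the same list, named after its values were seen, was at 0.0081 ± 0.10 in liver and above 0 in 1 of 4 mice. In brain the granulocyte factor Cebpe was at -0.76 ± 0.66, the antimicrobial peptide Camp at 0.44 ± 0.45, Ngp at 0.28 ± 0.099 (n = 3) and the monocyte receptor Ccr2 at 0.37 ± 0.48. No gene of the list passed limma's test.

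Among the chemokines and their receptors, which include Ccl6, 8 of 25 were above 0 in liver, with a median of -0.11, and 16 of 24 in brain, with a median of 0.058. The shares over all genes were 43.2% and 56.9%. In liver Ccl12 was at 0.53 ± 0.40, the membrane-bound chemokine Cx3cl1 at -0.52 ± 0.42, Ccl25 at -0.29 ± 0.21 and the scavenging receptor Ackr2 at -0.22 ± 0.24 (SD, n = 4 mice). In brain Ccl8 was at 0.94 ± 0.87 (n = 3), Ccl12 at 0.29 ± 0.24 (n = 3), platelet factor Pf4 at -0.40 ± 0.77 and Cxcl1 at -2.40 ± 4.88 (n = 3). The value of Cxcl1 came from mouse 2, at -8.02, a pair with an extreme ratio. Ccl12 was above 0 in every mouse with a value in both tissues.

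Phagocyte activation and lysosome genes had 11 of 29 above 0 in liver, with a median of -0.10, and 14 of 28 in brain, with a median of -0.0022. The shares over all genes were 43.2% and 56.9%. In liver the NF-kappaB inhibitor Nfkbia was at 0.37 ± 0.062, apolipoprotein E Apoe at -0.23 ± 0.11, progranulin Grn at -0.18 ± 0.076 and cathepsin B Ctsb at -0.23 ± 0.22 (SD, n = 4 mice). Nfkbia was above 0 and the other 3 genes were below 0 in 4 of 4 livers. In brain arginase Arg1 was at 0.29 ± 0.12, nitric oxide synthase Nos2 at 0.35 ± 0.074 (n = 3), cystatin F Cst7 at 0.22 ± 0.044 and the adaptor Myd88 at -0.20 ± 0.21. Arg1 and Cst7 were above 0 in 4 of 4 brains, and no gene of the list passed limma's test.

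**Figure D3:**
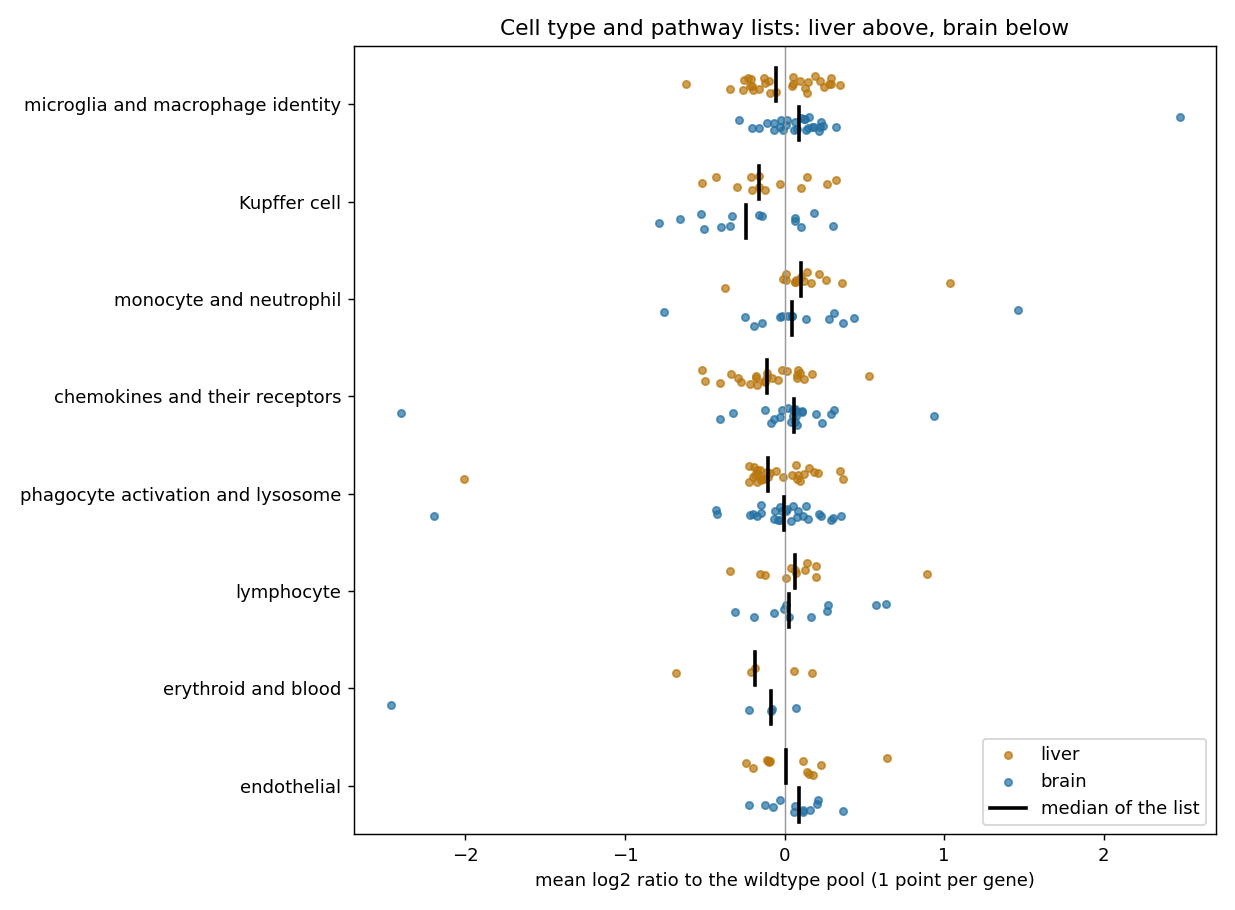
Mean log2 ratio to the wildtype pool (x axis) of every tested gene of 8 lists, 1 point a gene, livers above brains, with the list median as a black bar. The medians lie between -0.24 (Kupffer cell list, brain) and 0.10 (monocyte and neutrophil list, liver), and the points of each list lie on both sides of 0 in each tissue.

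Lists of other cells gave these values beside the members, where 43.2% of all genes were above 0 in liver and 56.9% in brain. The lymphocyte list had a median of 0.068 in liver (9 of 12 above 0) and 0.024 in brain (7 of 11). The endothelial list had 0.010 in liver (6 of 12) and 0.090 in brain (8 of 12). The erythroid and blood list had -0.18 in liver (2 of 5) and -0.084 in brain (1 of 5). The part of blood or vessel RNA in the members' values was not tested.

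The genes most like each member over the 8 mouse values (7 for Laptm5 and Cd5l), among about 7171 genes with all values and no extreme ratio, were found by Pearson's r as a description. For C1qa they were Napa at 0.948 and Plpp3 at 0.948, for Itgam Aco1 at 0.978 and Aadat at 0.969, and for Lyz2 with its probes averaged Paqr9 at 0.922 and Pla2g1b at 0.914. For Laptm5, whose 7 values include the 8.01 made with the extreme ratio, they were Dyrk1a at 0.988 and Slc1a1 at 0.985. For Cd5l they were Cox8b at 0.981 and Nhlrc3 at 0.957, and for Ccl6 Bst2 at 0.978 and Fyb at 0.965. Each of these is the highest r of about 7171 over 7 or 8 values. None of these 12 genes belongs to the microglia and macrophage identity list. Only 22 or 23 other genes of that list were among those compared, so its absence here says little. The median r of a member with that list's other genes was -0.065 for C1qa, 0.13 for Itgam, 0.099 for Lyz2, 0.17 for Laptm5, 0.052 for Cd5l and 0.027 for Ccl6. Over all genes compared the median r was 0.024, 0.14, 0.055, 0.091, -0.066 and 0.21 in the same order.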

How the data were processed

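The authors deposited one log2 ratio per probe and array (20794 probes, 16 arrays, base 2 assumed). Per the labels' protocols, cDNA made from total RNA was coupled indirectly to Cy3 or Cy5. How the images were scanned, corrected and normalized is not given in the sources used here. Without intensities, signal over background is unknown. Precision rests on the number of mice and their spread, since the dye-swapped arrays of a sample are technical repeats. Symbols came from the platform annotation through current gene numbers, moved by 11 rows. Dye-swapped pairs were averaged per mouse, and a probe needed at least 3 mice. Means against 0, and the liver-minus-brain difference, were tested in limma 3.58.1 (R 4.3.3; two-sided) over all probes, with Benjamini-Hochberg adjustment at 0.05. The scripts were tested on simulated data. Alternatives were each dye orientation alone, array centring and scaling, extreme ratios left out, all 4 mice required, another symbol offset, a dye term, the mouse as a block and each mouse left out. The difference between dye orientations was tested by a fit added after the data were seen. The numbers in the labels pair the tissues because both came from the same mouse. The correlation of same-mouse deviations between tissues (Spearman's rho over 15077 probes) was 0.071, -0.0036, 0.10 and 0.024. The highest rho with another mouse was 0.030, 0.073, 0.054 and 0.056. Mice 1 and 3 thus matched their own tissue best and mice 2 and 4 did not, so the pairing rests on the labels alone. The members and lists were chosen with earlier results of these data known. Named genes were the members, the 4 genes of smallest p per list and tissue, and the 2 most like each member.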

Additional observations from a re-analysis of the deposited data

Results flagged for a closer look

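Among 66 groups of 4 mice, for the members and the named list genes, 6 had 1 mouse apart from the others. The measure was Dixon's ratio of the gap to the range, above its 95% critical value. The nominal rate of about 1 in 20 groups does not apply here. List genes were picked by p from these same values, only in the tissue that named them, and the groups share mice. None of the groups flagged was a probe of the 6 members. In liver, Gpr34 had a ratio of 0.922, with 1 mouse at -0.12 and the others between -0.31 and -0.30, and Fcna had 0.843, with 1 mouse at -1.34 and the others between -0.22 and -0.015. In brain, Marco had 0.836, with 1 mouse at 0.72 and the others between 0.12 and 0.22. Cd3e had 0.919 (1 mouse at -0.64, the others between 0.92 and 1.05), and Cd3g had 0.948 (1 mouse at 0.94, the others between 0.022 and 0.0695). Slc4a1 had 0.875, with 1 mouse at -8.58, a pair with an extreme ratio, and the others between -0.85 and 0.25.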

How the results depend on the processing

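No member passed under any alternative (lowest adjusted p 0.191, for Itgam). Of 255 member values, 232 kept their sign and 23 did not. The main means of most members returned unchanged when every mouse was required, probes of a gene were averaged or extreme ratios were left out. The same held with a dye term or with the mouse as a block. These settings could not turn those signs, so the 232 is no measure of stability. The dye orientation mattered most, and the cause was not tested. With HdhQ111/+ RNA in Cy5 alone, the liver means turned to 0.36 for Itgam, 0.19 for the second Lyz2 probe, 0.12 for Ccl6, 0.15 for C1qb, 0.18 for Ccr1, -1.02 for S100a8, 0.023 for Ackr2, 0.12 for Apoe, -0.058 for Cd5, 0.32 for Gzma, 0.41 for Cd3e, 0.23 for Hba-a1, -0.079 for Alas2 and -0.11 for Eng. The brain means turned to 0.041 for Folr2, 0.20 for Cebpe, -0.33 for Ngp, 1.38 for Cxcl1, 0.35 for Bpgm, 0.056 for Car2 and -0.13 for Ccr1, and the differences to -0.10 for Cd5l, 0.18 for Ccl6 and 0.31 for Ccr1. The liver medians moved to 0.0775 (identity list) and 0.078 (Kupffer cell list). In brain 2 probes passed, both unnamed, with means of 16.74 and 16.79, the size of extreme ratios.

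With it in Cy3 alone, the liver means turned to 0.17 for the first Lyz2 probe, 0.16 for Laptm5, 0.72 for Cd5l, -0.062 for Car2 and -0.22 for Tie1. The brain means turned to -0.27 for Itgam, -0.066 and -0.18 for the Lyz2 probes, -0.695 for Laptm5, 0.023 for Cd5l, 0.0040 for Ccl6, -0.032 for C1qb, 0.024 for C1qc, -0.35 for Fcgr1, -0.50 for Ccr2, -0.073 for Ccl12, 0.37 for Pf4, -0.11 for Nos2, -0.28 for Cst7, 0.32 for Myd88, -0.18 for Il7r, -0.022 for Cd3g, 0.42 for Cd79b, 0.36 for Alas2 and -1.25 for Vwf. The differences turned to 0.23 for the first Lyz2 probe and 0.86 for Laptm5. The identity list moved to -6.25e-04 in liver, -0.026 in brain and 0.11 for the difference.

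Scaling the arrays to one spread turned the first Lyz2 probe in brain to -6.4e-04. Centring turned no sign. With all 4 mice required the identity list had a liver median of 0.0465 and 0 probes passed the difference. With symbols at offset 0 the Kupffer cell list had medians of -0.0215 in liver and 0.0425 in brain. The fit of all arrays with a dye term passed 3 probes in brain (Prl, Pomc and Crybb2) and 2 for the difference (Prl and Pomc), as did leaving out ratios over 10 in size (2).

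Leaving out 1 mouse gave 0 to 2 passing probes in liver (2, Styx and Snx10, without mouse 1) and 0 to 7 for the difference: 7 without mouse 1, 5 without mouse 2, 0 without mouse 3 and 2 without mouse 4. Means that changed sign ranged from -1.01 to 0.047 for Laptm5 in liver (above 0 without mouse 3), -0.029 to 0.11 for the first Lyz2 probe in brain (below 0 without mouse 1 or 2), and -0.15 to 0.19 for Ccl6 in brain (above 0 without mouse 1). Differences ranged from -0.26 to 1.14 for Cd5l and -0.29 to 0 for Ccl6; without mouse 2 they were -0.26 and 0. Other ranges were -0.016 to 0.31 in liver, -0.068 to 0.017 in brain and -0.033 to 0.31 for the difference of C1qc, -1.7e-04 to 0.14 for Ccr1 in brain, -3.96 to 0.41 for Cxcl1 and -0.61 to 0.026 for Cd79b. The liver medians ranged from -0.099 to 0.028 for the identity list (above 0 without mouse 3) and from -0.18 to -0.029 for the Kupffer cell list (nearest 0 without mouse 1). The brain medians ranged from 0.016 (without mouse 3) to 0.098 for the identity list and from -0.30 to 0.018 (above 0 without mouse 2) for the Kupffer cell list.

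With the mouse as a replicate block the difference was -0.276 for C1qa, -0.39 for Itgam, -4.00 for Laptm5 and 0.20 for Cd5l, and 1 probe passed as before, but Pomc in place of Prl. The call on Prl was lost with the block. The block changed no adjusted call among the members, while Itgam and the second Lyz2 probe no longer had an unadjusted p under 0.05 (0.074 and 0.064).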

Other observations

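Genes of other cells that share the tissue with macrophages were also named by the rule, and none passed limma's test. In liver the T cell surface protein Cd5 was at 0.895 ± 0.73 (SD, n = 3 mice). Also in liver, the cytotoxic granule proteins were at 0.20 ± 0.18 (Nkg7) and -0.34 ± 0.50 (Gzma), and the T cell chain Cd3e at -0.15 ± 0.25 (SD, n = 4 mice). In brain Cd3e was at 0.57 ± 0.81, the interleukin receptor Il7r at 0.26 ± 0.33, the T cell chain Cd3g at 0.27 ± 0.44 and the B cell receptor chain Cd79b at -0.31 ± 0.78.

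The alpha globin Hba-a1, the main oxygen carrier of red cells, was at -0.68 ± 0.75 in liver and below 0 in 4 of 4 mice; cDNA probes of this gene can bind its near-identical copy. The heme enzyme Alas2 was at 0.17 ± 0.25 in liver and -0.22 ± 0.31 in brain, Bpgm at -0.18 ± 0.27 in liver and -0.081 ± 0.15 in brain, and Car2 at 0.060 ± 0.10 in liver and -0.084 ± 0.18 in brain. The anion exchanger Slc4a1 was at -2.47 ± 4.10 in brain. Of the endothelial genes, the receptors Kdr, Tek and Tie1 were at -0.24 ± 0.13, 0.23 ± 0.22 and 0.11 ± 0.090 in liver, with Eng at 0.15 ± 0.070. In brain Tek was at -0.22 ± 0.13, Tie1 at 0.21 ± 0.41, Flt1 at 0.12 ± 0.085 and Vwf at 0.37 ± 0.41 (SD, n = 4 mice). Tek was above 0 in 4 of 4 livers and below 0 in 4 of 4 brains, a liver-minus-brain difference of 0.45 with an adjusted p of 0.708 in limma.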
